A study of Mus musculus with 19 samples.

Results

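The *Csmd* genes (CUB and sushi multiple domains) are described here by the extrachromosomal circular DNA (eccDNA) that overlapped them in mouse spinal cord. Members were all genes of the deposited table whose symbol starts with Csmd, which gave 3 of 8336 genes, *Csmd1*, *Csmd2* and *Csmd3*. *Csmd1* and *Csmd3* were picked with their ALS and control values known, so that their group levels are given as a description without a test. EccDNA was measured in cervical spinal cord, with 1 library per animal. The 9 ALS samples came from male mice of B6.Cg-Tg(SOD1*G93A)1Gur/J, which constitutively overexpress a mutant human superoxide dismutase 1 gene, at an age of 18 to 21 weeks and with a motor severity score of 1 or 2. The 10 control samples came from C57BL/6J mice of the same sex and age range, which carry no transgene. Transgenic animals without timely motor symptoms had been excluded, and the promoter of the transgene is not given in the sources used here.

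The CSMD proteins are very large membrane proteins of the nervous system, built mostly from alternating CUB and sushi domains. Sushi domains are the building blocks of many regulators of complement, the protein cascade that tags cells and synapses for removal, and CSMD1 is known to restrain complement activation in the brain. The table measures DNA circles from the gene loci and neither RNA nor protein, so that the name complement regulator rests on known function only.

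The unit was PpGC (produced per gene eccDNAs), the number of reads split across circle junctions of all eccDNAs on a gene, scaled up for shorter genes by the ratio of the longest gene's length to their own. The deposited values are log2(PpGC + 1), and undoing the length scaling returned whole split reads for the members. An eccDNA needed at least 2 split reads, which correspond to a log2 PpGC of 2.68 in *Csmd1*, 4.03 in *Csmd2* and 3.06 in *Csmd3*. A value of 0 therefore means that no such eccDNA was found at the depth of the library. Circles had been amplified before sequencing, and split reads of 1 circle can be copies of each other, for which reason none carries a counting interval. The libraries differed strongly in load. An eccDNA was found in 694 to 2204 genes per ALS sample and in 57 to 723 genes per control sample, and the split reads on genes numbered 74017 to 391395 and 3583 to 123388, respectively. Each member's difference between the groups is therefore also given with load as a covariate.

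The 3 loci are long and mostly intronic. *Csmd1* (ENSMUSG00000060924.15) spans 1643 kb on the minus strand of chromosome 8 (15892537 to 17535586, mm10) and ranked 9 in length among the 8088 genes of the table that could be placed on the genome. *Csmd3* (ENSMUSG00000022311.15) spans 1211 kb on the minus strand of chromosome 15 (47580637 to 48792063) and ranked 29. *Csmd2* (ENSMUSG00000028804.20) lies on the plus strand of chromosome 4 (127987857 to 128567656) and, at 579.8 kb, ranked 166. Against a median length of 49.3 kb, all 3 thus belong to the longest genes measured. Annotated exons covered 1.16% of *Csmd1*, 2.95% of *Csmd2* and 1.39% of *Csmd3*. In base composition the loci differed from each other. The GC content was 35.2% in *Csmd3*, lower than in all but 1.31% of the genes, 40.3% in *Csmd1* and 48.0% in *Csmd2*, compared to a median of 43.3%. The share of bases masked as repeats ran the opposite way, with 36.9% in *Csmd3*, 26.7% in *Csmd1* and 19.9% in *Csmd2*.

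*Csmd1* was the member found most often. An eccDNA overlapped it in 9 of 9 ALS samples and in 2 of 10 control samples. Over all genes of the table, 8 (0.096%) held an eccDNA in all 9 ALS samples. The split reads per ALS sample ranged from 2 (ALS sample 5) to 1065 (ALS sample 3) with a median of 20, while control samples 4 and 8 had 3 and 2 split reads and the other 8 had none. On the log2 scale, the ALS samples lay between 2.68 and 11.49 with a median of 5.78, and the control values above 0 were 3.19 and 2.68. The groups overlapped at their edge only, since ALS sample 5 was at the level of control sample 8 and below control sample 4. The mean log2 PpGC was 6.48 ± 2.66 (SD, n = 9) in ALS and 0.59 ± 1.24 (SD, n = 10) in controls, a difference of 5.90. With sample load (the number of other genes with an eccDNA) as a covariate, the difference was 1.66, and load itself follows the group.

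The reads of *Csmd1* were concentrated in few animals. ALS sample 3 alone contributed 75.1% of its 1418 split reads in ALS, and ALS samples 1 and 3 together 84.8%. ALS samples 4 and 6 had 8 split reads each. The level thus spanned from the smallest that could be recorded to a place of 37 among 2140 genes ranked by split reads in ALS sample 3. Part of the signal in ALS sample 1 is shared with another gene. *Gm16346*, an antisense gene inside *Csmd1* (chromosome 8, 16226003 to 16232305), held 44 split reads in that sample only, equal to 32.1% of the 137 split reads of *Csmd1* there, and an eccDNA overlapping both genes counts for each.

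*Csmd3* was found in 7 of 9 ALS samples and in 1 of 10 control samples. Of all genes, 69 (0.828%) held an eccDNA in 7 or more ALS samples. The split reads in ALS ranged from 0 (ALS samples 2 and 6) to 1230 (ALS sample 4) with a median of 8. In controls the only value above 0 was 2 split reads in control sample 2. On the log2 scale, ALS values lay between 0 and 12.14 around a median of 4.92, and the single control value was 3.06. The groups overlapped in that ALS samples 2 and 6 were at 0 like 9 of the controls, and ALS sample 8 had the same 2 split reads as control sample 2. The mean was 5.96 ± 4.60 (SD, n = 9) in ALS and 0.31 ± 0.97 (SD, n = 10) in controls, a difference of 5.65. With sample load as a covariate, the difference was 3.57.

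The level of *Csmd3* varied widely between the ALS samples. ALS samples 3, 4 and 7 had 595, 1230 and 301 split reads and log2 values of 11.09, 12.14 and 10.11. ALS sample 9 was intermediate with 72 split reads, and ALS samples 1, 5 and 8 had 8 or fewer. The 2 highest samples accounted for 82.5% of its 2213 split reads in ALS. The study's vote for common genes asks for a log2 PpGC of at least 9 in 3 or more ALS samples, a criterion that 71 genes (0.852%) met. *Csmd3* met it with 3 samples, while *Csmd1* reached that level in 1 sample and *Csmd2* in none. A limit applies to chromosome 15. Its share of the genes with an eccDNA ranged from 1.85% (ALS sample 5) to 6.08% (ALS sample 8) between the ALS libraries, and the chi-square per degree of freedom was 4.50 for it, 1.95 for chromosome 8 and 1.17 for chromosome 4. In the samples with high *Csmd3*, the chromosome 15 share was 4.34%, 5.75% and 5.57%, and its part in the *Csmd3* values was not tested.

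*Csmd2* was found in 4 of 9 ALS samples and in 2 of 10 control samples. An eccDNA in 4 or more ALS samples was seen in 5.91% of all genes. Its split reads in ALS ranged from 0 to 33 with a median of 0. ALS samples 1, 2, 5 and 9 held 33, 6, 13 and 2 split reads, and control samples 8 and 10 held 2 and 16. The groups overlapped throughout. Control sample 10, at a log2 PpGC of 6.95, exceeded every ALS sample except ALS sample 1 at 7.99. The mean was 2.69 ± 3.35 (SD, n = 9) in ALS and 1.10 ± 2.41 (SD, n = 10) in controls. The difference of 1.59 was smaller than the spread in ALS, and it was 0.93 without ALS sample 1, 2.24 without control sample 10 and 0.80 with sample load as a covariate.

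**Figure D1:**
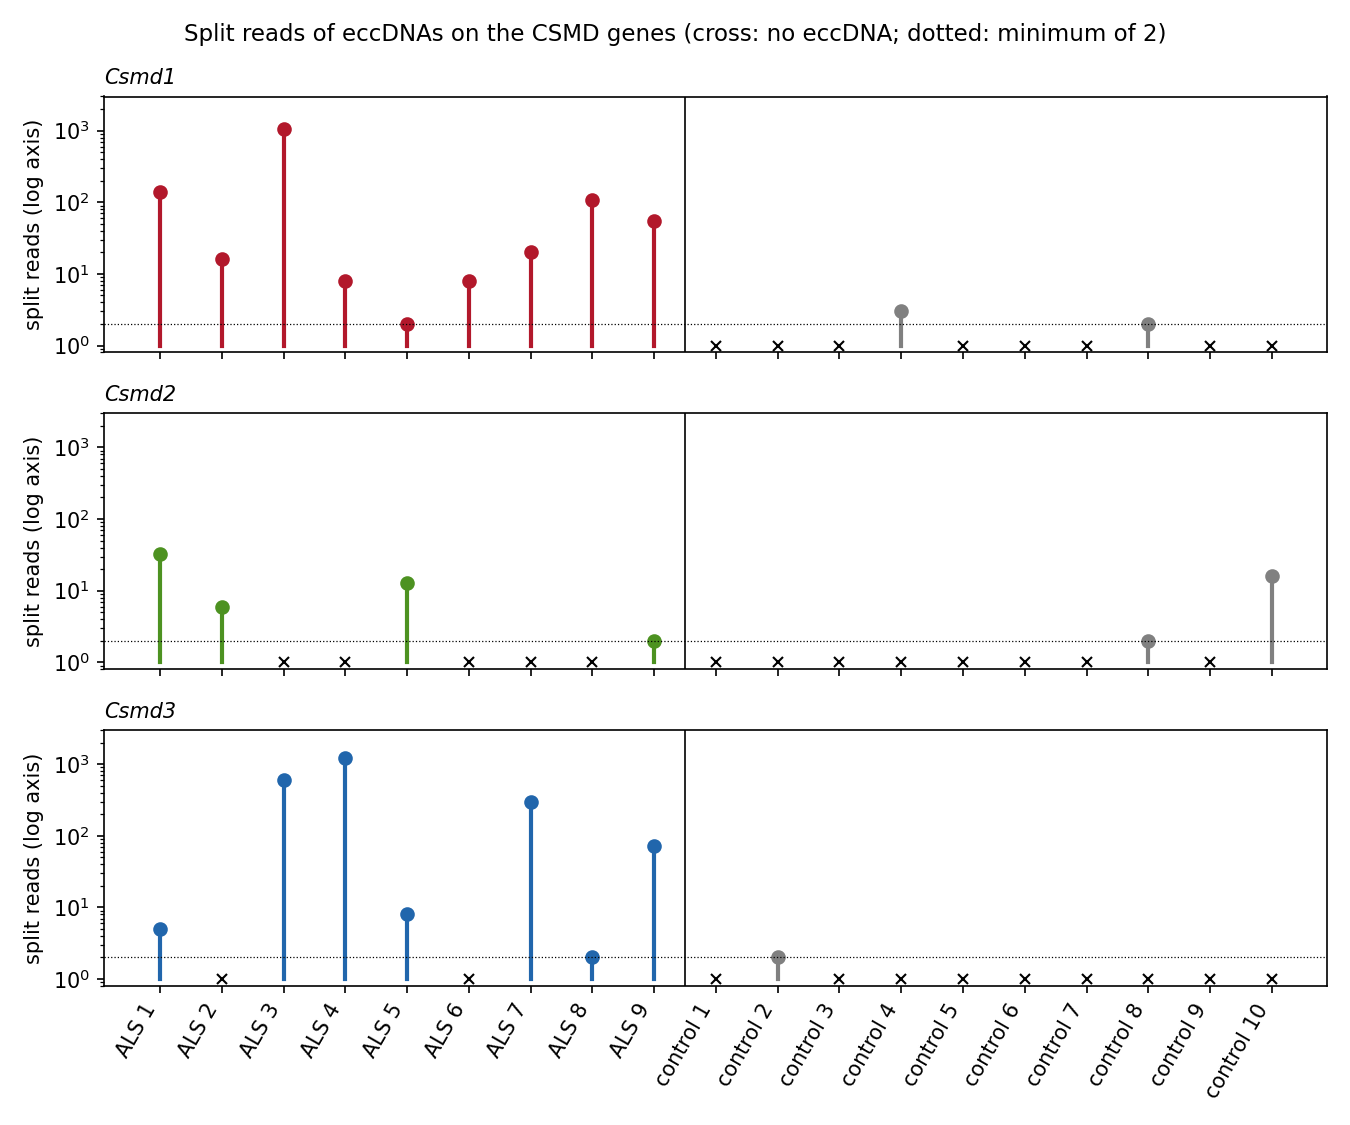
Split reads of eccDNAs overlapping *Csmd1*, *Csmd2* and *Csmd3* in each of the 9 ALS and 10 control samples, on a log axis, with a cross for samples without an eccDNA and a dotted line at the minimum of 2 split reads. *Csmd1* is above 0 in all ALS samples and spans 2 to 1065 split reads, *Csmd3* is high in ALS samples 3, 4 and 7, and *Csmd2* reaches 33 split reads in ALS and 16 in controls.

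By the study's thresholds, which are a mean log2 PpGC more than 1 above that of controls and a p under 0.01 in its per-gene test, taken here as two-sided, 111 of 8336 genes (1.33%) were higher in ALS and 0 were lower. The methods do not state the sides of the test. If its p was one-sided, the count by the same thresholds is 189, so that the calls given here hold for a two-sided p. After Benjamini-Hochberg adjustment, 6 genes (0.072%) had a p under 0.05. *Csmd1* and *Csmd3* are among the 111 and *Csmd2* is not. The first 2 were picked from this contrast, which fixes their place there, and nothing is read from it. No gene of the table had its lowest ALS value above its highest control value (0%), the members included.

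The deposited values are not scaled between samples. Each member was therefore also expressed as a share of the split reads that its library held on genes. In ALS, *Csmd1* took between 0.000553% (ALS sample 5) and 0.602% (ALS sample 3) of these reads, with a median of 0.0171%. In controls its highest share was 0.00848% in sample 4, with 35376 genic split reads, which exceeded the share in 3 of the 9 ALS samples. *Csmd3* reached 1.15% of the genic split reads of ALS sample 4 and 0.336% of those of ALS sample 3. Its control value of 2 split reads made up 0.0113% of a library with 17724 genic split reads, more than in 5 of the 9 ALS samples. By share, the overlap between the groups was thus wider than by level for both genes. For *Csmd2*, the highest shares in ALS (0.0359%, ALS sample 1) and in controls (0.0333%, sample 10) lay close together.

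**Figure D2:**
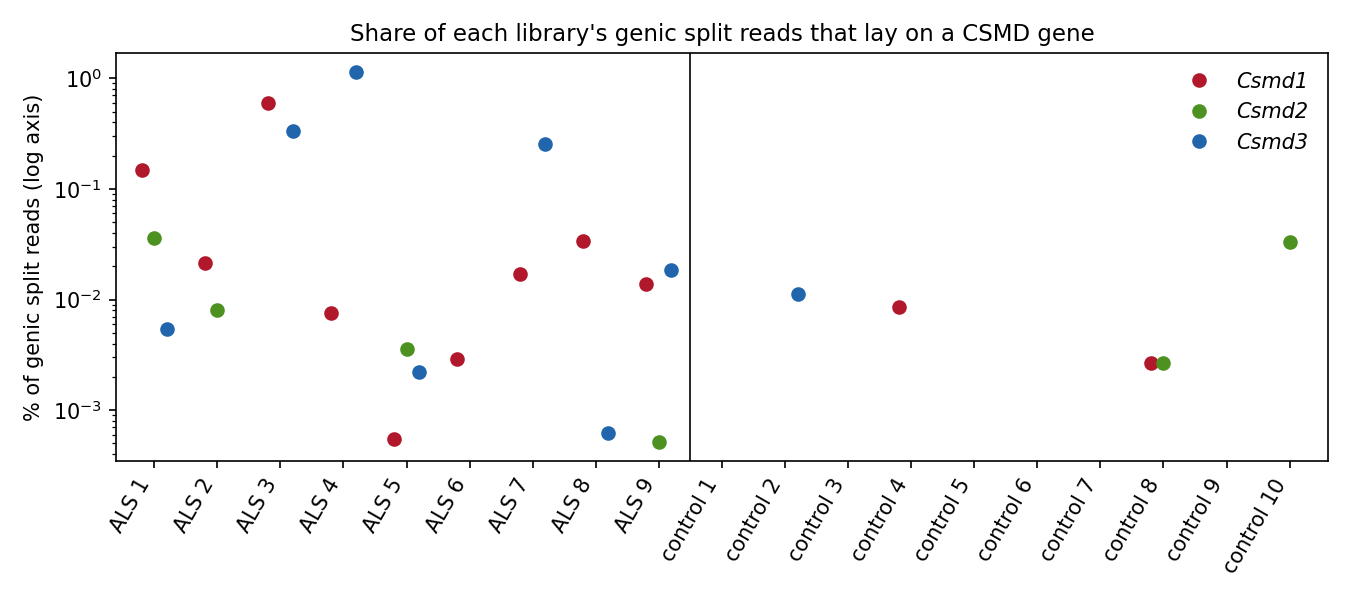
Share of the split reads on genes that lay on each *Csmd* gene, in percent on a log axis, for each sample with an eccDNA in the gene. *Csmd3* in ALS sample 4 (1.15%) and *Csmd1* in ALS sample 3 (0.602%) are the highest points, and the control points lie among those of the ALS samples.

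The members differed in which animals they were high in. In ALS, *Csmd1* and *Csmd3* were present together in 7 of 9 samples, all of those with *Csmd3*. All 3 members were found in ALS samples 1, 5 and 9. In controls, any member was found in samples 2, 4, 8 and 10, and more than 1 in sample 8 only, which held *Csmd1* and *Csmd2* at 2 split reads each. *Csmd1* had a higher log2 PpGC than *Csmd3* in 5 of the 9 ALS samples and a lower one in 4. In ALS sample 4, *Csmd3* had 1230 split reads and *Csmd1* 8, whereas in ALS sample 1 *Csmd3* had 5 and *Csmd1* 137. Only ALS sample 3 was high in both, and it had no eccDNA in *Csmd2*. Across the 9 ALS samples, the Pearson correlation of log2 PpGC was 0.260 between *Csmd1* and *Csmd3* (exact permutation p = 0.503), -0.163 between *Csmd1* and *Csmd2* (p = 0.675) and -0.365 between *Csmd2* and *Csmd3* (p = 0.321). The Spearman rho was 0.139 (p = 0.718), -0.0550 (p = 0.897) and -0.312 (p = 0.409), respectively, with exact permutation as well. Without the 2 samples farthest from the median of the first gene, r was -0.102, 0.497 and -0.380. A shared rise and fall of the members within ALS was thus not detectable with 9 animals.

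Whether a member followed the load of its animal was tested within ALS, a relation the choice of the genes did not use. *Csmd1* rose with the number of other genes with an eccDNA in the sample (r = 0.856, exact permutation p = 0.00344 and 0.0206 after Benjamini-Hochberg adjustment over 6 relations, two-sided, n = 9). The Spearman rho was 0.745 (exact permutation p = 0.0267, adjusted 0.160). The relation rested on ALS samples 1 and 3, the animals with the most such genes, since r was 0.537 without both (exact permutation p = 0.217) and 0.701 without ALS sample 3 alone (exact permutation p = 0.0511). With the log2 of the genic split reads as the load, r was -0.0899. ALS samples 5 and 9, with 361584 and 391395 genic split reads, held 2 and 54 split reads of *Csmd1*, and ALS sample 8, with 318296, held 108. Among the 37 genes with an eccDNA in 8 or more ALS samples, the median r with the number of genes was 0.208, and *Csmd1* had the highest value. This rank is a description, since 37 genes were compared on the same 9 animals.

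For *Csmd3*, no relation to load was detected. Its r with the number of genes was 0.203 (exact permutation p = 0.607, adjusted 0.675) and its rho was -0.0251 (exact permutation p = 0.957, adjusted 0.957). Without ALS samples 1 and 3, r was -0.152. ALS sample 4, with eccDNA in 923 genes the second lowest of the ALS group, had the highest *Csmd3* level. For *Csmd2*, r was 0.163 (exact permutation p = 0.674, adjusted 0.675) and rho 0.347 (exact permutation p = 0.368, adjusted 0.819), and r was 0.318 without ALS samples 1 and 3. The difference between the correlations of the members was not tested.

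**Figure D3:**
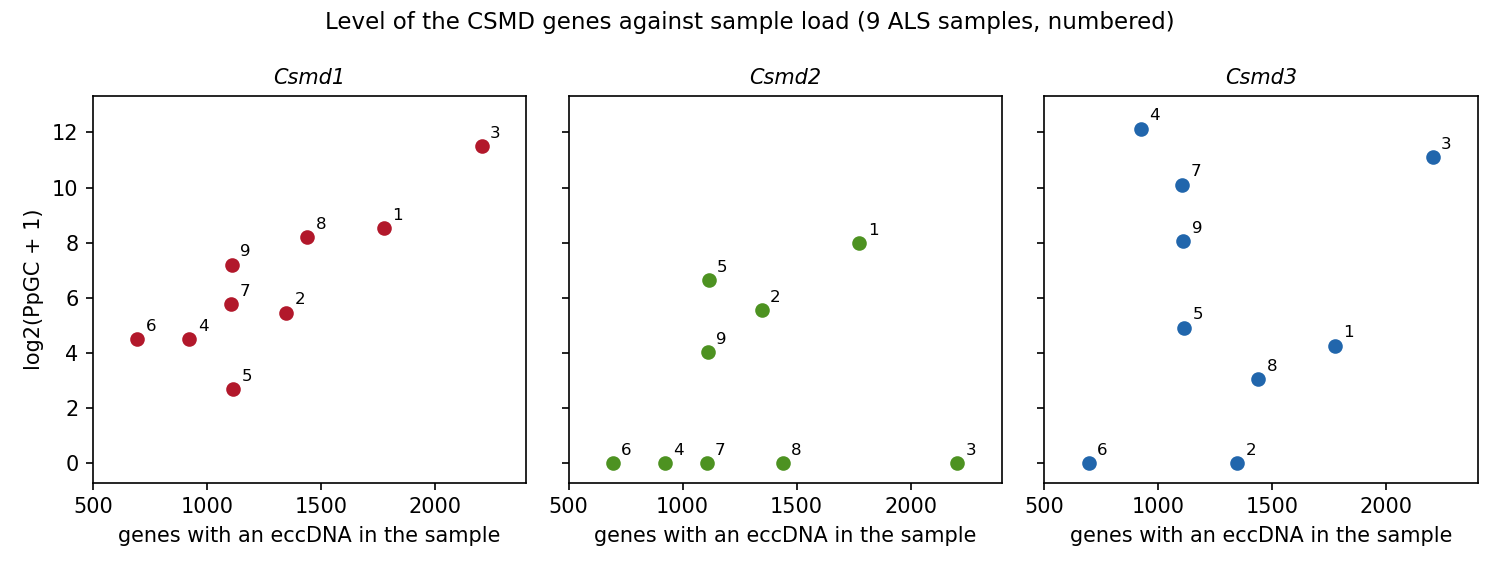
Log2(PpGC + 1) of each *Csmd* gene against the number of genes with an eccDNA, for the 9 ALS samples, which are numbered. *Csmd1* is highest in samples 3 and 1, which have the most genes with an eccDNA, while *Csmd3* is highest in sample 4, which has 923.

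*Csmd1* and *Csmd3* were next compared with genes of their own size. The table held 58 genes over 1 Mb. They had an eccDNA in a median of 7 ALS samples (range 0 to 9) and 2 control samples (range 0 to 6), so that *Csmd3* with 7 and 1 and *Csmd1* with 9 and 2 were near or above the middle of this class. The genes over 1 Mb in all 9 ALS samples were *Csmd1*, *Dlg2*, *Macrod2*, *Cntnap2* and *Fgfr2*. *Dlg2*, a synaptic scaffold gene of 1973 kb, was also found in 4 control samples, and *Cntnap2*, a neurexin family gene of 2245 kb, in 4 as well. By the difference of mean log2 PpGC, for which the class had a median of 3.65, *Csmd1* ranked 5 and *Csmd3* 7 among the 58. Both genes were picked with these values known, so that their ranks and sample counts are a description. In this class, 20 genes (34.5%) were higher in ALS by the study's thresholds, against 1.33% of all genes. All genes of the class longer than *Csmd1* differed less between the groups, from 1.16 in *Dmd* to 5.73 in *Ptprd*. For the same number of split reads, PpGC is lower in a longer gene. *Fgfr2*, at 2961 kb the longest of the class, differed by 2.62 and was found in 5 control samples.

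A further 17 genes over 1 Mb held an eccDNA in 8 ALS samples. They included the cell adhesion genes *Cntn5* (difference 6.84), *Cdh12* (5.98), *Cdh13* (4.88) and *Cntn4* (2.81), with an eccDNA in 2, 1, 3 and 4 control samples. *Fhit* and *Magi2* were found in 6 and 5 control samples, and *Lrp1b*, *Ptprd* and *Rbfox1* in 3, 4 and 4. Of the 58 genes over 1 Mb, 19 were found in 1 or 0 control samples, *Csmd3* among them. *Csmd2* was compared with the 174 genes from 500 kb to 1 Mb, which had an eccDNA in a median of 5 ALS samples and 1 control sample and a median difference of 2.96. With 4 ALS and 2 control samples and a difference of 1.59, it ranked 138 of the 174.

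**Figure D4:**
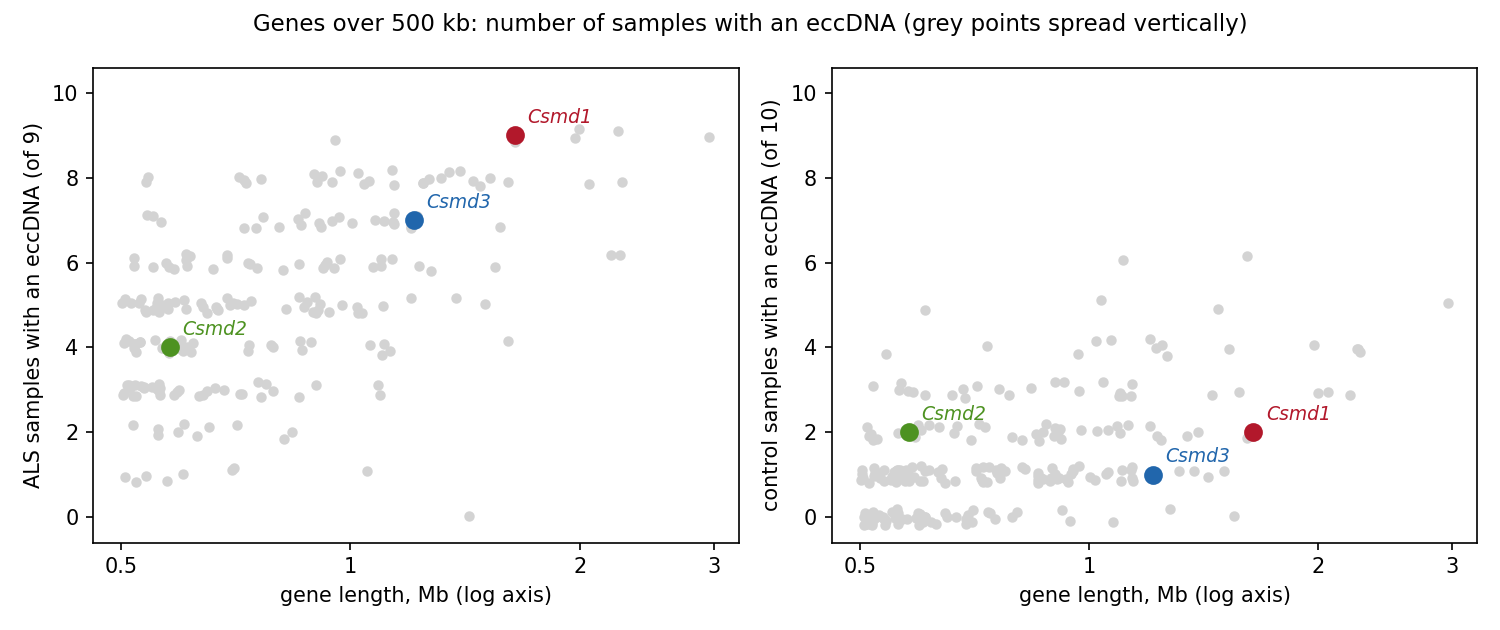
Number of ALS samples (of 9, left) and control samples (of 10, right) with an eccDNA in each gene over 500 kb, against gene length on a log axis. Grey points are all such genes, spread slightly in the vertical direction, and *Csmd1* lies in the top row in ALS together with 5 other genes.

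*Csmd1* and *Csmd3* are also among 10 genes that the study names for recurrent DNA break clusters, sites of repeated breakage in long neural genes. The other 8 were *Cadm2*, *Cdh13*, *Ctnnd2*, *Grik2*, *Magi1*, *Ntm*, *Rbfox1* and *Wwox*. They had an eccDNA in 5 to 8 ALS samples and 0 to 4 control samples, with a median difference of 3.93, compared to 1.19 over all genes. Of these 8, *Cdh13*, *Grik2*, *Magi1* and *Ntm* passed both thresholds with a two-sided p, compared to 1.33% of all genes. Only *Cdh13* and *Rbfox1* are over 1 Mb, where the share was 34.5%. The others span 608 to 968 kb, and the share among genes of that size is not given here. The study took the 10 from a longer list of such genes because its own calls in these samples had them higher in ALS. Neither the median difference nor the count is therefore independent evidence of a direction. The study also compared the complete list between the groups, which was not repeated here.

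The genes around the members were then examined for eccDNA of their own. Within 1 Mb of the 3 genes, the annotation lists 114 other genes, of which 11 were in the table, with 6 near *Csmd1*, 5 near *Csmd2* and none of 14 near *Csmd3*. None of the 11 passed both thresholds by the study's test, by limma or by exact permutation. The number at an unadjusted two-sided p under 0.05 was also 0. With 1.33% of all genes called, nothing particular to the neighbours is read from a count of 0 among 11. They held an eccDNA in at most 3 ALS samples, with a median difference of 1.00 compared to 1.19 over all genes. *Gm7706*, a long non-coding RNA gene 521 kb from *Csmd1*, had 98, 7 and 34 split reads in ALS samples 3, 6 and 8 and none in controls (difference 3.03, exact permutation p = 0.0867). *Myom2*, a muscle M-band gene, had 6 and 4 split reads in ALS samples 3 and 9 and 5 in control sample 8. At 6.30 to 230.9 kb, these 11 genes are all shorter than the members, and the part of length in their fewer eccDNAs was not tested.

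Within 2 Mb, 35 neighbours were in the table, the 11 nearer ones included, and 1 of them was higher in ALS, compared to 1.33% of all genes. It was *Dlgap2*, a postsynaptic scaffold gene of 752 kb that lies 1045 kb from *Csmd1* on chromosome 8 (14095865 to 14847680). It was found in 7 ALS samples and no control sample. Over the 19 samples it was also the gene with the pattern most like that of *Csmd1*, with a Spearman rho of 0.849 among 402 genes with an eccDNA in 5 or more samples. Of the 10 control samples, 8 were at 0 in both genes. Within ALS, the sizes of both genes were far apart in 2 samples. *Dlgap2* had 6449 split reads in ALS sample 9, where *Csmd1* had 54, and 5 in ALS sample 3, where *Csmd1* had 1065. In the other 7, *Dlgap2* was highest in ALS samples 1 and 8 (476 and 66 split reads), as was *Csmd1* (137 and 108). *Dlgap2* was at 0 in ALS samples 5 and 6, where *Csmd1* had 2 and 8. These 7 were left after the 2 discordant samples were set aside, so that nothing is read from their likeness. After *Dlgap2*, the genes most like *Csmd1* were *Epb41l3* (0.842), *Cacnb2* (0.836), *Gmds* (0.801) and *Ttc28* (0.794), none of them with an eccDNA in a control sample.

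For *Csmd3*, the most similar patterns were those of *Dcdc5* (rho 0.855), *Lmbrd1* (0.817), *Rundc3b* (0.808), *Dpp10* (0.793) and *Catsperb* (0.787). *Dcdc5* was found in ALS samples 3, 4, 5, 7 and 9, all of them samples with *Csmd3*, with 2 to 18 split reads each. For *Csmd2*, the likeness over the 19 samples was lower, with *Maml2* (0.622), *Cdh8* (0.617), *Thsd4* (0.613), *Rbfox3* (0.606) and *Ascc3* (0.587) leading. Within the 9 ALS samples alone, the leading genes were *Kirrel3* for *Csmd1* (0.868), *Rbfox3* for *Csmd2* (0.900) and *Dcdc5* for *Csmd3* (0.904), and *Dlgap2* was not among the 5 most like *Csmd1*. In neither comparison was a member among the 5 genes most like another. These values share the libraries and their load, and the genes were selected as the highest, so that no p is attached. Those over the 19 samples also hold the group contrast from which *Csmd1* and *Csmd3* were picked.

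Finally, the members were set beside other genes of the complement system and other genes with CUB or sushi domains. Of 56 further complement genes listed, 11 were in the table, and 1 of them was higher in ALS, compared to 1.33% of all genes. All 11 had a higher mean in ALS, as had 7212 of the 8336 genes, and their median difference was 1.21 compared to 1.19 over all genes. Among the components of the cascade, 8 of 29 were in the table and none passed. *C2*, the serine protease of the classical convertase, had 2 and 5 split reads in ALS samples 3 and 8, and *Hc*, which encodes C5, had 7 and 17 in ALS samples 1 and 2. None of the 8 receptors was in the table. Complement genes are short, with a median of 21.2 kb over the list.

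The gene that passed was *Sez6l*, a neuronal membrane protein gene with CUB and sushi domains like those of the members. It was found in 5 ALS samples and no control, with 43 split reads in ALS sample 6 and 2 each in ALS samples 2, 3, 5 and 8. At 158 kb, 2 split reads correspond to a log2 PpGC of 5.84, and 4 of its 5 values lie at this minimum. The difference was 3.73 (exact permutation p = 0.0108, and 0.00634 by the study's test if taken as two-sided). It no longer passed when ALS sample 2, 3, 5 or 8 was left out. Its relative *Sez6l2* had 4 split reads in ALS sample 6 only, and *Sez6* was not in the table.

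Of 82 genes with CUB or sushi domains, 30 were in the table. With a two-sided p, *Sez6l* alone passed both thresholds, compared to 1.33% of all genes, and none was lower. *Svep1* passed as well with a one-sided p. The median difference was 1.15 compared to 1.19 over all genes. *Adgrg6*, a receptor gene of Schwann cells with a CUB domain, had the largest difference of the list (5.46, exact permutation p = 0.0323) without passing. It held 2232 and 1595 split reads in ALS samples 5 and 9, 71 or fewer in 4 others, and 7 and 14 in control samples 2 and 9. ALS samples 5 and 9 were thus high in *Adgrg6* and low or moderate in *Csmd1* and *Csmd3*. *Svep1*, an extracellular matrix gene with many sushi domains, differed by 3.30 (exact permutation p = 0.0325) with 2 to 10 split reads in 4 ALS samples.

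**Figure D5:**
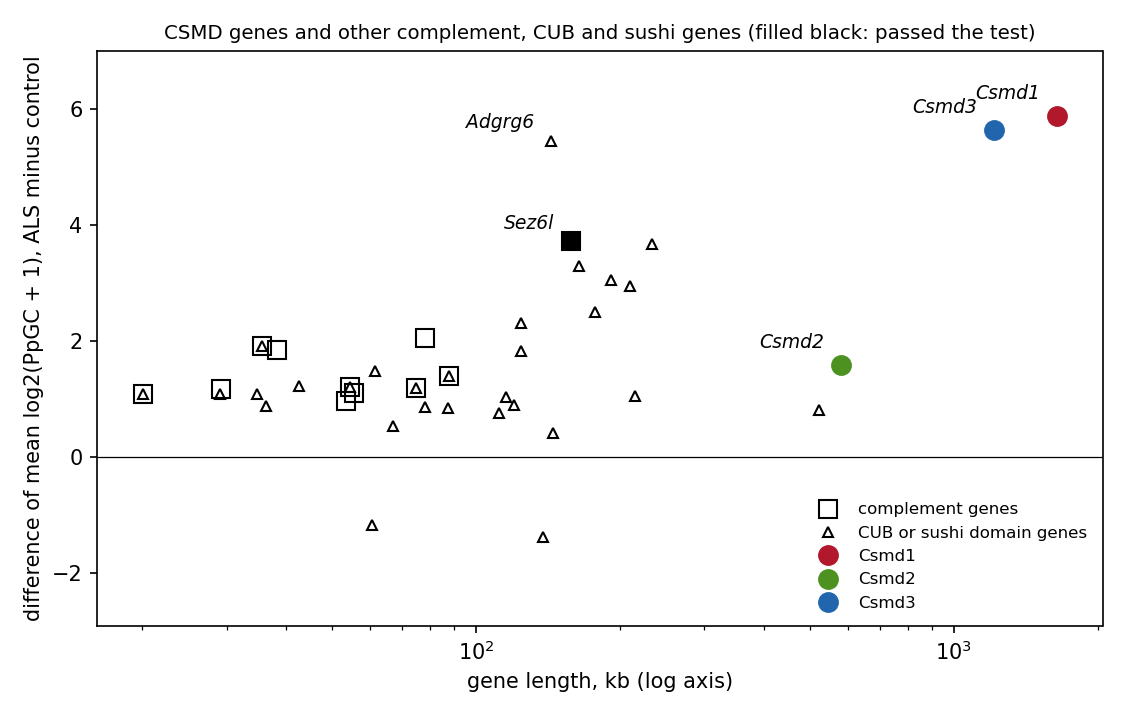
Difference of mean log2(PpGC + 1), ALS minus control, against gene length on a log axis, for the *Csmd* genes and for the other complement genes (squares) and CUB or sushi domain genes (triangles) in the table. *Sez6l*, filled, is the only one of these other genes that passed both thresholds with a two-sided p. *Csmd1* and *Csmd3* are longer than all of these other genes.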

How the data were processed

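EccDNA of 19 cervical spinal cord samples was sequenced after 400 ng of DNA per sample had been treated with exonuclease V for 7 days, to remove linear DNA, and amplified for 48 h by rolling circle amplification. The authors called circles on mm10 with Circle_Finder, removed those with fewer than 2 split reads, assigned them to GENCODE genes with bedtools, and deposited log2 values, log2(PpGC + 1), scaled for gene length but not across libraries. Which GENCODE release they used is not given in the sources used here, and the table holds no sequencing depth. Columns of other samples numbered 0. The paper gives an average number of reads over the libraries, which was not used here, and per library only the split reads on genes are known.

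Genes were placed by name on GENCODE release M21, and 98.9% of the non-zero values then came back as whole split reads (tolerance 0.02). GC content and repeat masking were read from GRCm38. The members, the gene lists and the tests were chosen with earlier results of these data known. Each gene was tested with Student's test, two-sided, with a difference above 1 and a p under 0.01 as the methods set it, or by exact permutation over 92378 assignments of samples to groups. Correlations in ALS had exact permutation over 362880 pairings. The load was the number of genes other than the *Csmd* genes with an eccDNA. Named genes were the members, list genes that passed and the *Sez6* family, neighbours with an eccDNA in 3 or more samples, the 5 genes most like each member, genes over 1 Mb in 8 or more ALS samples and the study's break cluster genes. *C2*, *Hc*, *Adgrg6*, *Svep1*, *Myom2*, *Gm16346* and the neighbour beyond 1 Mb were named after their values were seen. Samples of a group shared at most 13.5% of their genes, and no columns were identical. Tests were run in SciPy 1.17.1 (Python 3.11.15, pandas 2.3.3, NumPy 2.4.6) and limma 3.58.1 (R 4.3.3), and were tested on simulated data.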

Additional observations from a re-analysis of the deposited data

Results flagged for a closer look

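In 8 of 18 sets of values of 1 gene or measure in 1 group, a single sample stood apart from the others by Dixon's criterion, which chance meets in about 1 in 20 sets. Many sets hold mostly zeros, where any value stands out. In ALS, sample 3 stood apart in the share of genic split reads on *Csmd1* (0.602%), sample 4 in that on *Csmd3* (1.15%), sample 1 in that on *Csmd2* (0.0359%) and sample 6 in that on *Sez6l* (0.0155%). In controls, sample 4 stood apart in the *Csmd1* share (0.00848%), sample 10 in the *Csmd2* share (0.0333%), and sample 2 in the *Csmd3* share (0.0113%) and its log2 PpGC (3.06), where it was the only value above 0. On the log2 scale, no ALS sample stood apart for *Csmd1*, *Csmd2* or *Csmd3*.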

How the results depend on the processing

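The higher mean of *Csmd1*, *Csmd2* and *Csmd3* in ALS kept its direction under all alternatives except the medians of *Csmd2*, which were 0 in both groups. The alternatives for *Csmd2* were added after seeing the data. A pseudocount of 100 moved the difference of *Csmd1* to 1.33, that of *Csmd2* to 0.26 and that of *Csmd3* to 1.79. The load as covariate gave 1.66 for *Csmd1*, 0.80 for *Csmd2* and 3.57 for *Csmd3*. Without length scaling, the differences were 4.77 for *Csmd1*, 0.91 for *Csmd2* and 4.43 for *Csmd3*. Leaving out each sample gave 5.27 to 6.37 for *Csmd1*, 0.93 to 2.24 for *Csmd2* and 4.88 to 6.40 for *Csmd3*.

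The labels give same-numbered ALS and control samples nothing in common but the number. Their deviations correlated at -0.0301 to 0.0614 and 1 of 9 pairs matched best. Samples of a group themselves shared at most 13.5% of their genes, so that these values cannot tell whether the numbers mark a pairing. With the replicate block, the differences were 5.83, 2.24 and 5.62, 54 genes were higher in ALS, and the counts of complement and of CUB and sushi genes were 0. Control sample 10 has no ALS sample of its number and adds nothing to these differences. Leaving it out without a block gave the same 3 differences, with 98 genes higher in ALS and counts of 1 and 1.

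Over all genes, 111 passed by the main test, 166 by limma, 81 with equal totals per sample, 68 by exact permutation p, 6 by adjusted p, 189 one-sided, 9 with a pseudocount of 100, 71 without length scaling, 26 with the load as covariate (5 of them among the 111) and 85 to 133 without 1 sample. The complement count of 1 was 0 by exact permutation p, by adjusted p, with a pseudocount of 100, without length scaling and with the load as covariate, and 0 to 1 without 1 sample. The CUB and sushi count of 1 was 0 under the same 5 settings, 2 by limma (*Adgrg6* added), 2 one-sided (*Svep1* added) and 0 to 2 without 1 sample. The neighbour count of 0 was 1 within 2 Mb and 0 to 0 without 1 sample. The cause of these moves was not tested.

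The correlation of *Csmd1* with load was 0.537 without ALS samples 1 and 3, -0.0899 with log2 split reads as load, and 0.701 to 0.928 without 1 sample. That of *Csmd3* with load was -0.0251 by Spearman, -0.152 without ALS samples 1 and 3, -0.0894 with log2 split reads, and -0.173 to 0.436 without 1 sample. For *Csmd2* and load it was -0.135 with log2 split reads and -0.0889 to 0.60 without 1 sample. For *Csmd1* and *Csmd3* it was -0.102 without 2 samples and -0.0553 to 0.483 without 1, for *Csmd1* and *Csmd2* 0.497 and -0.434 to 0.0979, and for *Csmd2* and *Csmd3* -0.613 to -0.253 without 1. Positions of circles within the genes and sequencing depth were not analysed here, so that several circles and 1 amplified circle cannot be told apart in a value.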
